A study of Mus musculus with 16 samples.

Results

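The laminins and other basement membrane glycoproteins examined here were 10 of the 31055 genes counted in every library. They were chosen by name and comprised the laminin chains Lama2, Lama4, Lama5, Lamb1, Lamb2 and Lamc1, the nidogens Nid1 and Nid2, and the heparan sulfate proteoglycans Hspg2 (perlecan) and Agrn (agrin). Their transcripts were measured in 16 droplet single cell RNA libraries of mouse thoracic aorta, 1 male 129S6/SvEv mouse each, from the aortic root to the left subclavian artery. Smad3SmKO mice carried Smad3 lox/lox and Myh11-CreER, a tamoxifen-inducible Cre recombinase on the Y chromosome whose Myh11 promoter is active in vascular smooth muscle cells (VSMCs). Control Smad3+/+ mice also carried Myh11-CreER, and both genotypes received tamoxifen at 6 weeks of age. Aortas were collected 10 weeks after deletion (2 Smad3+/+ and 2 Smad3SmKO mice) or 18 weeks after deletion (5 and 7 mice), and dissociated cells were sorted as live nucleated cells before capture. Fibroblasts and endothelial cells were not targeted by this Cre. The labels of some libraries also named a Myh11-GFP tracer, and the study's methods describe a conditional EGFP-L10a tracer allele in some mice.

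Laminins are secreted as trimers of 1 alpha, 1 beta and 1 gamma chain. The alpha chain carries most of the sites that bind cell surface receptors, and the trimers polymerize into the sheet that anchors cells to their basement membrane. Nidogens bridge the laminin and type IV collagen networks, perlecan adds heparan sulfate chains to both, and agrin binds laminin and dystroglycan. In the arterial wall each VSMC of the media is surrounded by basement membrane and the endothelium rests on one, whereas fibroblasts of the adventitia lie in interstitial matrix.

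Cells were assigned by transcript: VSMCs held at least 5 Myh11 unique molecular identifiers (UMIs, 1 per captured RNA molecule) and more Myh11 than Dcn, fibroblasts at least 5 Dcn UMIs and more Dcn than Myh11, and endothelial cells at least 2 UMIs of Pecam1 and Cdh5 together. Of 66349 deposited cells, 50858 passed the study's limits on genes, UMIs and mitochondrial share, and those that met exactly 1 definition were kept: 8714 VSMCs, 34253 fibroblasts and 1254 endothelial cells. Library totals ran from 12539539 to 52843031 UMIs. UMIs were summed per library and cell type and are given as CPM, counts scaled to a common total of that library and cell type (UMIs per 1000000). The sums rested on 20 to 1680 VSMCs, 193 to 5223 fibroblasts and 4 to 170 endothelial cells, and the endothelial sum of Smad3SmKO 18 weeks replicate 7, with 4 cells, was left out. Genes used by the definitions aside, the labels of the 3 cell types held: Acta2 averaged 25562 CPM in VSMCs against 1108 in fibroblasts, Pdgfra 224 CPM in fibroblasts against 4.70 in VSMCs, and Cldn5 533 CPM in endothelium against 0.846 in fibroblasts.

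Several libraries stood apart. The fibroblast sum of Smad3SmKO 18 weeks replicate 7 held 5649 CPM of Acta2, against 180 to 1457 in the other 15 libraries, and 214 CPM of Serpinf1, so fibroblast values that it moved are given with and without it. The fits between cell types used the 15 libraries with all 3 sums and did not include it. No fibroblast fold change between genotypes, or its difference between times, moved by more than 0.00897 on the log2 scale without it. That was set by the design, because its batch held only Smad3SmKO 18 weeks replicates 5 and 7. With batch in the fit, its level could not move these fold changes. Among the 120 pairs of libraries, Smad3+/+ 18 weeks replicates 4 and 5 shared 3507 cell barcodes, 73.0% of the smaller library, and the next pair 920, but only 2 of the first pair's shared barcodes remained within the limits in both. GFP counts went against the tracer label in 4 libraries. Smad3SmKO 10 weeks replicates 1 and 2 held 246 and 165 GFP UMIs without the label, and Smad3+/+ 18 weeks replicates 4 and 5 carried it with 0. Smad3 itself was counted at 4.73 to 5.31 CPM in the VSMCs of Smad3+/+ mice at 10 weeks, 5.23 to 7.97 in Smad3SmKO at 10 weeks, 1.97 to 9.54 in Smad3+/+ at 18 weeks and 4.32 to 19.1 in Smad3SmKO at 18 weeks. It was not lower in Smad3SmKO VSMCs in either fit (log2 fold change 0.15, 95% interval -0.63 to 0.93 at 18 weeks), but UMIs were counted at the 3′ end and the exons that Cre removes are not given in the sources used here, so these counts do not check the labels.

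The promoters of the chains that separated the cell types most are shown because Smad proteins bind CAGAC and serum response factor, the main regulator of contractile genes, binds the CArG box. Of the 10 genes, 7 had an entry in the RefSeq promoter set (build GRCm38.p6), and Lama4, Lamc1 and Nid2 had none. Each sequence runs 5′ to 3′ up to at most 250 bases before the RefSeq start, stops before any annotated exon, and has CAGAC (or GTCTG on the other strand) and the CArG box in capitals. Lama2 is from chr10:27616943-27617192 (minus strand), Lama5 from chr2:180225860-180226109 (minus strand), Lamb1 from chr12:31265043-31265233 (plus strand) and Lamb2 from chr9:108479612-108479735 (plus strand).
Lama2: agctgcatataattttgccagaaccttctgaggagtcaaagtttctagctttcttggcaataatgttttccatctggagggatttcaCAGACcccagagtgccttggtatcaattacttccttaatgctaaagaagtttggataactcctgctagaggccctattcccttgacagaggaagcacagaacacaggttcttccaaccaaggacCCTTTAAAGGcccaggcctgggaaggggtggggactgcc
Lama5: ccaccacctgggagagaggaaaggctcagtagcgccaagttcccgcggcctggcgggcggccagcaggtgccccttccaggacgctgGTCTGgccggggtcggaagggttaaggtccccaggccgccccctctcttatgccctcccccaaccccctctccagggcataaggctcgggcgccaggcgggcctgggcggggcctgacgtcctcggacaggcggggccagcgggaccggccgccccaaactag
Lamb1: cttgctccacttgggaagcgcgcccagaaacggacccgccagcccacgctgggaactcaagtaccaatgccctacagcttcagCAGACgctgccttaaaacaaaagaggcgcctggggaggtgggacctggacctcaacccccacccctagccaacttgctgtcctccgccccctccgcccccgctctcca
Lamb2: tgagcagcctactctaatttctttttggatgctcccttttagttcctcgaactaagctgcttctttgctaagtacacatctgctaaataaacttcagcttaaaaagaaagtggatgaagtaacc
In the full 250 bases, CAGAC occurred in 4 of the 7 genes (Lama2, Lama5, Lamb1 and Lamb2, the last outside the stretch shown) and in 42.2% of all 32851 promoters of that length. The CArG box occurred in Lama2 and in 1.47% of all promoters, GGGCGG in 5 of the 7 genes and 32.7% of all promoters, and TATAAA in none of the 7 and 12.4% of all. GC content was 47.2% for Lama2 and 72.4% for Lama5, with a median of 52.4% over all promoters.

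The alpha chains divided the 3 cell types (plot of levels by cell type). Lama2, the alpha chain of laminins that bind dystroglycan around skeletal muscle fibers, was the fibroblast chain, Lama5 was highest in VSMCs and Lama4, a chain of the vascular wall, was highest in endothelium. Lama2 (chr10:26980036-27619758) stood at 20.0, 117 and 201 CPM in fibroblasts (lowest, median and highest of 16 libraries), at 5.08, 10.5 and 31.1 in VSMCs and at 0, 9.38 and 20.3 in the 15 endothelial sums. The VSMC level was below the fibroblast level of the same library in 16 of 16 libraries. The fitted level of Lama2 was 11.1-fold lower in VSMCs than in fibroblasts (log2 fold change -3.47, SE 0.14, adjusted p = 4.19e-22) and 12.8-fold lower in endothelium than in fibroblasts (adjusted p = 1.42e-19).

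**Figure D1:**
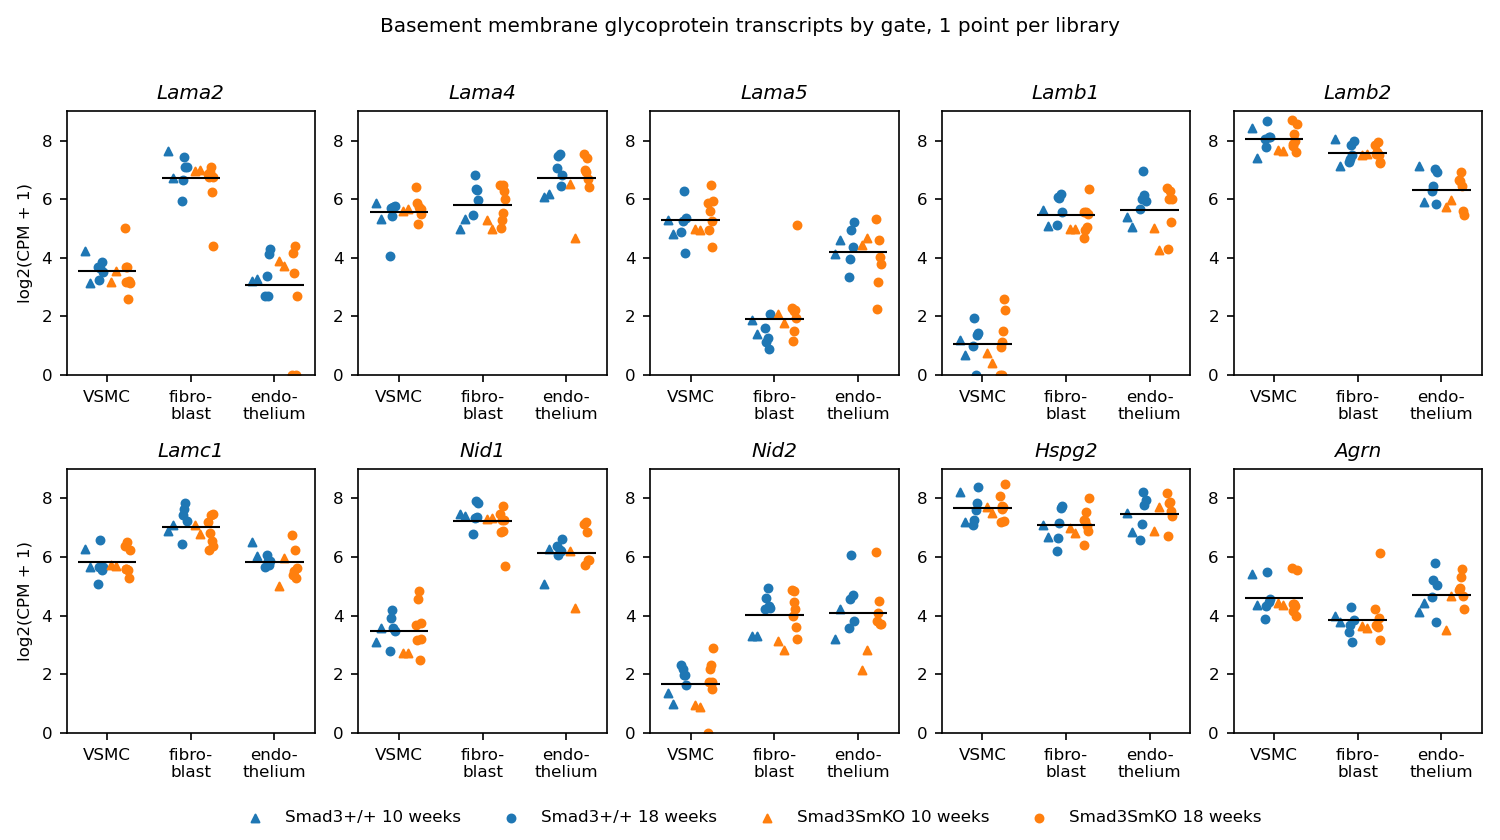
Level of each of the 10 genes (CPM, log axis) in VSMCs, fibroblasts and endothelium, 1 point per library and a bar at the mean of the log values. The means that follow are of CPM. Lama2, Nid1 and Lamb1 are high in fibroblasts and low in VSMCs, with means of 115, 158 and 45.6 CPM against 11.5, 11.5 and 1.41, while Lama5 runs the other way, with 4.32 (2.37 over the 15 libraries without Smad3SmKO 18 weeks replicate 7) against 41.6.

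Lama5 (chr2:180176373-180225859), the alpha chain of mature vascular basement membranes, was counted at 17.1, 37.0 and 87.5 CPM in VSMCs, at 0.875, 2.56 and 33.6 in fibroblasts and at 3.72, 19.8 and 39.0 in endothelium. The fibroblast maximum was the one library named above, the next highest fibroblast value was 3.87 CPM, and the fibroblast mean was 4.32 CPM with that library and 2.37 without it. Lama5 was 16.3-fold higher in VSMCs than in fibroblasts (log2 fold change 4.02, SE 0.18, adjusted p = 1.6e-20), above them in 16 of 16 libraries, and 7.20-fold higher in endothelium than in fibroblasts (adjusted p = 8.29e-12). Endothelium lay below VSMCs by a log2 value of -1.18 (adjusted p = 2.16e-05). At least 1 Lama5 UMI was found in 25.5% of VSMCs, 11.2% of endothelial cells and 2.06% of fibroblasts.

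Lama4 (chr10:38965515-39110188) was the alpha chain that VSMCs and fibroblasts shared. It was counted at 15.8, 50.0 and 83.8 CPM in VSMCs, at 30.7, 52.9 and 111 in fibroblasts and at 24.4, 113 and 185 in endothelium. VSMCs and fibroblasts overlapped over nearly their whole range, and the difference between them did not pass the test (log2 fold change -0.06, 95% interval -0.38 to 0.25, adjusted p = 0.747). Endothelium was higher than fibroblasts by 0.78 (SE 0.16, adjusted p = 9.14e-05) and than VSMCs by 0.84 (adjusted p = 7.63e-05).

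The beta chains were set in opposite order. Lamb1 (chr12:31265234-31329644), the beta chain first laid down in development, was counted at 24.8, 44.8 and 80.3 CPM in fibroblasts and at 18.3, 60.8 and 124 in endothelium, but at 0, 1.09 and 4.98 in VSMCs, where the 8714 cells held 141 Lamb1 UMIs in all and 3 libraries held none. No VSMC library reached the lowest fibroblast or endothelial value. Lamb1 was 26.2-fold lower in VSMCs than in fibroblasts (log2 fold change -4.71, SE 0.18, adjusted p = 9.09e-23) and 27.9-fold higher in endothelium than in VSMCs (log2 fold change 4.80, SE 0.20, adjusted p = 3.77e-21). Fibroblasts and endothelium did not differ in Lamb1 beyond the test (log2 fold change 0.09, adjusted p = 0.604).

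Lamb2 (chr9:108479736-108490530), the beta chain of mature vessel, synaptic and glomerular laminins, was the most counted of the 10 genes in VSMCs. It stood at 170, 259 and 419 CPM in VSMCs, 139, 183 and 267 in fibroblasts and 42.7, 85.7 and 140 in endothelium. VSMCs were above fibroblasts in 16 of 16 libraries, by a log2 fold change of 0.47 (SE 0.08, adjusted p = 5.24e-06), and the endothelial and VSMC values did not overlap (log2 fold change -1.98, adjusted p = 1.89e-19). Lamc1 (chr1:153218922-153332786), the gamma chain of nearly all laminin trimers, was higher in fibroblasts, with 73.8, 136 and 230 CPM, than in VSMCs, with 32.5, 50.0 and 94.5, or endothelium, with 31.1, 57.7 and 106. The log2 fold change against fibroblasts was -1.26 in VSMCs (SE 0.11, adjusted p = 1.47e-12) and -1.54 in endothelium (adjusted p = 3.62e-13), and endothelium and VSMCs did not differ beyond the test (-0.28, adjusted p = 0.0605).

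Both nidogens were low in VSMCs. Nid1 (chr13:13437551-13512269) was counted at 51.0, 161 and 239 CPM in fibroblasts, at 18.3, 72.7 and 146 in endothelium and at 4.59, 10.5 and 27.8 in VSMCs, and the VSMC and fibroblast ranges did not overlap. It was 16.5-fold lower in VSMCs than in fibroblasts (log2 fold change -4.05, SE 0.15, adjusted p = 2.98e-23), and endothelium lay between the other two (-1.35 against fibroblasts, adjusted p = 5.95e-11). Nid2 (chr14:19751265-19811787), its less abundant relative, was counted at 6.08, 17.7 and 29.8 CPM in fibroblasts, 3.46, 13.0 and 71.0 in endothelium and 0, 2.34 and 6.39 in VSMCs. It was 6.93-fold lower in VSMCs than in fibroblasts (adjusted p = 4.31e-18), while endothelium and fibroblasts did not differ beyond the test (-0.09, adjusted p = 0.688).

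Free RNA in droplets gives a low count of a gene in cells that do not express it. In the VSMC sums, fibroblast markers stood at a small share of their fibroblast mean: 2.09% for Pdgfra, 2.40% for Lum and 3.37% for Serpinf1. The VSMC level of Lamb1 was 3.10% of its fibroblast mean, within the range of those markers, and is not read as expression in VSMCs. Nid1 at 7.26%, Lama2 at 10.0% and Nid2 at 14.9% were above those 3 markers, whereas the collagen genes Col1a1 and Col14a1, also on the fibroblast list, stood at 19.6% and 35.9%. A UMI of Lamb1 was found in 1.38% of VSMCs against 22.7% of fibroblasts, and one of Nid1 in 6.29% against 57.6%, where the library medians were 5809 to 21846 UMIs per VSMC and 4309 to 26036 per fibroblast. The fibroblast sums likewise held VSMC markers, with means of 1108 CPM for Acta2 against 25562 in VSMCs and 1304 for Tagln against 22441. Myl9 stood at 350 against 9125, Mylk at 32.6 against 771, Cnn1 at 47.8 against 1844 and Smtn at 48.5 against 504. Lama5 in fibroblasts averaged 4.32 CPM (2.37 without Smad3SmKO 18 weeks replicate 7) against 41.6 in VSMCs. How much of it was free RNA was not tested.

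Perlecan and agrin were both higher in VSMCs than in fibroblasts. Hspg2 (chr4:137468769-137570630) was counted at 135, 202 and 359 CPM in VSMCs, at 72.5, 135 and 258 in fibroblasts and at 94.8, 190 and 297 in endothelium. VSMCs were above fibroblasts in 16 of 16 libraries (log2 fold change 0.67, SE 0.08, adjusted p = 1.12e-08) and above endothelium (-0.46 for endothelium against VSMCs, adjusted p = 4.53e-05). Agrn (chr4:156165290-156197488) was counted at 13.8, 20.1 and 47.9 CPM in VSMCs, at 7.56, 11.9 and 69.3 in fibroblasts and at 10.4, 24.5 and 54.9 in endothelium. It was 1.98-fold higher in VSMCs than in fibroblasts (adjusted p = 2.56e-10), in 15 of 16 libraries, and endothelium exceeded fibroblasts to a like degree (0.97, adjusted p = 1.01e-07). The exception was Smad3SmKO 18 weeks replicate 7, which also gave the fibroblast maximum, and the fibroblast mean was 15.9 CPM with it and 12.4 without it.

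Over the 10 genes, VSMCs differed from fibroblasts in 9 (4 higher and 5 lower), where 68.0% of all 13304 genes passed (31.4% higher and 36.6% lower). Endothelium differed from fibroblasts in 8 (4 higher and 4 lower), where 62.8% of all genes passed (27.8% higher and 35.0% lower), and from VSMCs in 7 (4 higher and 3 lower), where 67.5% passed (31.9% higher and 35.6% lower). These shares of all genes were high, so the number of genes that passed was not itself a result about this family. The median log2 fold change was -0.66 for the 10 genes and -0.05 for all genes in VSMCs against fibroblasts. The plot of cell type differences sets the 3 comparisons side by side.

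**Figure D2:**
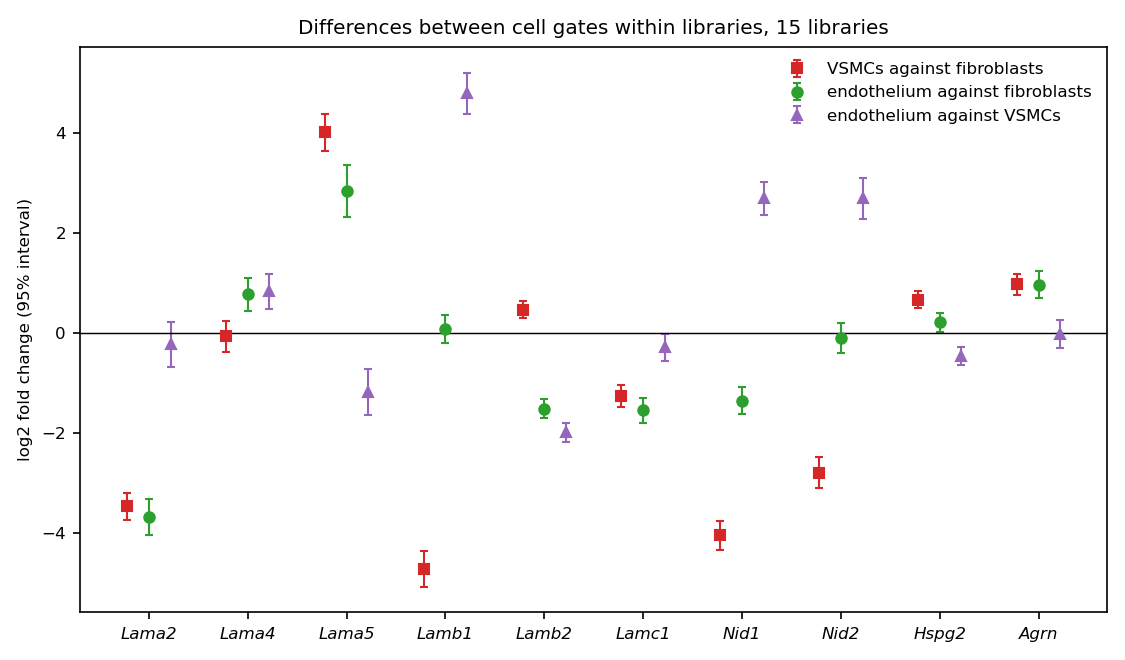
Log2 fold change of each gene with its 95% interval, for VSMCs against fibroblasts, endothelium against fibroblasts and endothelium against VSMCs, from sums of 15 libraries. Lamb1 is at -4.71 in VSMCs against fibroblasts but at 0.09 in endothelium, and Lama5 is above fibroblasts in both.

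The endothelial values depended on how cells that met 2 definitions were treated. Of 3303 cells with 2 or more Pecam1 and Cdh5 UMIs, 62.0% also met the VSMC or fibroblast definition and were left out above. With them counted, Dcn in the endothelial sums was 7427 CPM rather than 125 and Cdh5 was 170 rather than 571. Lama2 in endothelium then averaged 62.5 CPM rather than 10.1, and endothelium stood above VSMCs in Lama2 by 2.28 (adjusted p = 1.26e-14) in place of -0.22 (adjusted p = 0.398). The sign also turned for Lamc1 against VSMCs (0.64) and for Lamb1 against fibroblasts (-0.61). Lama4 no longer passed against fibroblasts (0.19, adjusted p = 0.272) or VSMCs (0.27, adjusted p = 0.0941). Macrophage and pericyte transcripts were also present in the endothelial sums kept, with Lyz2 at 174 CPM and Rgs5 at 476, and their part in the endothelial values was not tested.

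Set against each other within a library, the chains gave each cell type its own makeup (plot of chain shares). Each share is of the UMIs of 1 chain class; UMI counting at the 3′ end does not scale with transcript length, but genes may be captured with unequal efficiency, so shares are compared between cell types and not between chains. In VSMCs, Lama4 made up a median of 51.5% of alpha chain UMIs, Lama5 37.4% and Lama2 10.4%. In fibroblasts Lama2 made up 65.2%, Lama4 34.1% and Lama5 1.53%, and in endothelium Lama4 made up 78.0%, Lama5 13.4% and Lama2 8.11%. The endothelial level of Lama2 was 8.34% of its fibroblast mean. There the fibroblast markers stood at 7.15% for Pdgfra, 6.87% for Serpinf1, 6.13% for Col1a1, 3.71% for Col14a1 and 2.96% for Lum. How much of the endothelial Lama2 share was free RNA was not tested. The VSMC share of Lama5, 20.7% to 58.9%, overlapped the fibroblast share only through Smad3SmKO 18 weeks replicate 7, at 28.9%.

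Lamb2 made up 97.5% to 100% of beta chain UMIs in VSMCs, 65.1% to 88.2% in fibroblasts and 40.0% to 83.9% in endothelium. No library's VSMC share reached the fibroblast range. Lamc1 made up a median of 68.9% of gamma chain UMIs in VSMCs, 65.5% in fibroblasts and 77.8% in endothelium, the rest being mostly Lamc3, a gamma chain of narrower distribution. Lama1, the alpha chain of the early embryo, had 1 UMI in all sums, and Lama3 reached a median share of 4.55% in endothelium.

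**Figure D3:**
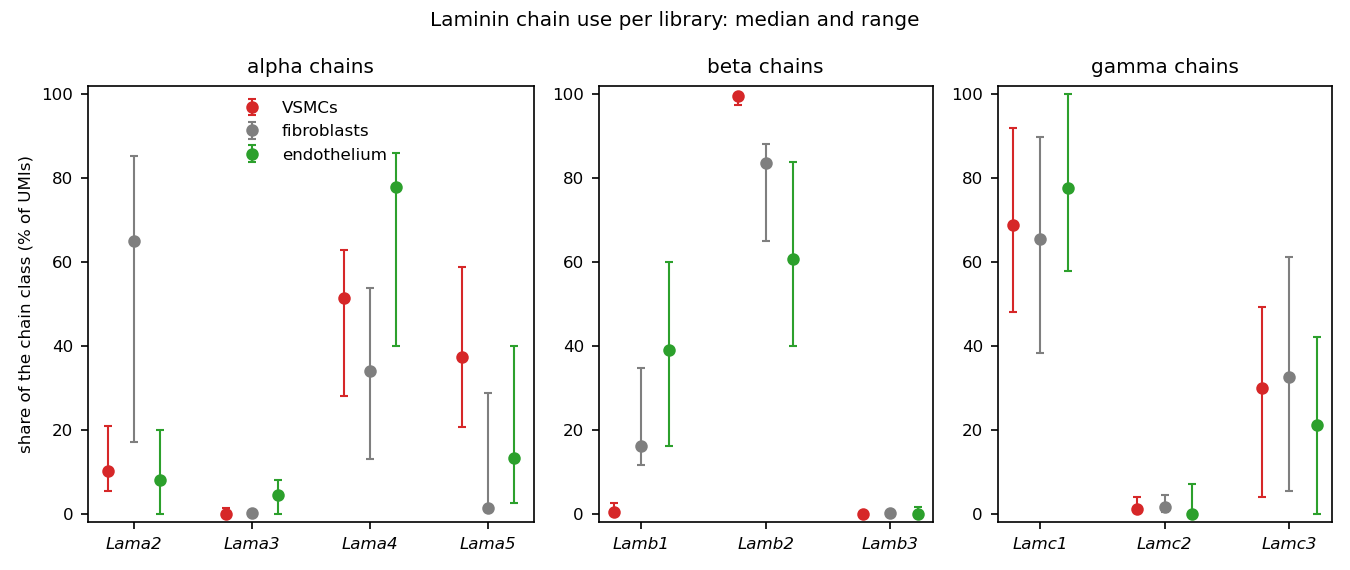
Share of alpha, beta and gamma chain UMIs (percent) held by each laminin chain in VSMCs, fibroblasts and endothelium, with a point at the median of the libraries and a bar over their range. Lamb2 holds nearly all beta chain UMIs in VSMCs, and Lama2 most alpha chain UMIs in fibroblasts.

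Receptors of these glycoproteins were examined in the same fits. Of 8 receptor genes, 6 were higher in VSMCs than in fibroblasts and 1 was lower, where 31.4% of all genes were higher and 36.6% lower. So many genes passed in this comparison that the counts of this list and of those below are descriptions, and the values of single genes are given with them. Itga7, the alpha subunit of the main muscle laminin integrin, was higher by 5.07 on the log2 scale (adjusted p = 9.45e-23), Bcam, a receptor of laminin alpha-5, by 4.89 (adjusted p = 5.35e-23), and Mcam, a receptor of laminin alpha-4, by 5.42 (adjusted p = 1.18e-20). Dag1, which encodes dystroglycan, was higher by 0.53 (adjusted p = 2.73e-08). Of 7 dystrophin complex genes 6 were higher in VSMCs, among them Dmd (dystrophin, 2.88) and Sgca (alpha-sarcoglycan, 5.50), and Sgce was lower (-0.72).

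Endothelium held other receptors. Itga6 and Itgb4, which pair as a laminin integrin, were higher than in VSMCs by 6.79 (adjusted p = 1.57e-26) and 6.40 (adjusted p = 2.94e-16). The laminin chain Lama3 was also higher there, by 5.11. All of Dmd, Sgca, Sgcb, Sgcd, Sgce and Sspn were lower in endothelium than in VSMCs. Of 9 basement membrane collagen genes (the crosslinking enzyme Pxdn included), 4 were higher in VSMCs than in fibroblasts, led by Col18a1 (4.65), and 3 were lower, led by Col4a3 (-3.53), against 68.0% of all genes that passed in either direction. Of 9 other associated glycoproteins, Tinagl1 was higher in VSMCs (5.85) and 7 were lower, among them Fbln1 (-5.68) and Smoc2 (-4.89).

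Across the 47 sums of library and cell type, the gene most like each of these was found by Pearson correlation of log2 CPM over 12675 genes; the sums share libraries and cell type differences set most of the values. For Lama2 it was Gsn (r = 0.926), for Lama5 Actn4 (0.938) with Mcam next (0.923), for Lamb1 Ly6a (0.958) and for Nid1 Cmtm3 (0.939). For Lamb2 it was Neo1 (0.895), with Dag1 in the third place (0.889), for Lamc1 Hmcn2 (0.851) and for Nid2 Capg (0.892), with Lamb1 in the third place (0.868). Hspg2 was most like Col4a2 (0.753), Agrn most like Aplp2 (0.792) and Lama4 most like Bptf (0.830). Among the 10 genes themselves Lamb1 and Nid2 were the closest pair, and Lama2 and Lama5 the most opposed (r = -0.761).

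The comparison of genotypes asks whether loss of Smad3 in VSMCs moved these genes in the targeted cells or in their neighbors. With edgeR and adjustment over all genes, 0 of the 10 passed in any of the 3 cell types at either time or for the difference of the effect between times, and 0 of 10 reached an unadjusted p of 0.05 in these 9 comparisons. When single libraries were left out, at most 3 of the 10 reached that p (Agrn, Lama2 and Lamb2 in VSMCs at 10 weeks without Smad3+/+ 10 weeks replicate 2). Few genes passed at all: 0.0340% of 11750 genes (4) in VSMCs at 18 weeks, 0% in the 10 week VSMCs, 0.00851% (1) in the test of the difference, and 0% in fibroblasts and endothelium. Over all genes in VSMCs, 4.80% reached an unadjusted p under 0.05 at 18 weeks, 1.76% at 10 weeks and 2.49% in the test of the difference, and the same 3 shares were 2.35%, 0.841% and 0.910% in fibroblasts and 3.53%, 3.37% and 3.43% in endothelium. DESeq2 also called none of the 10.

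**Figure D4:**
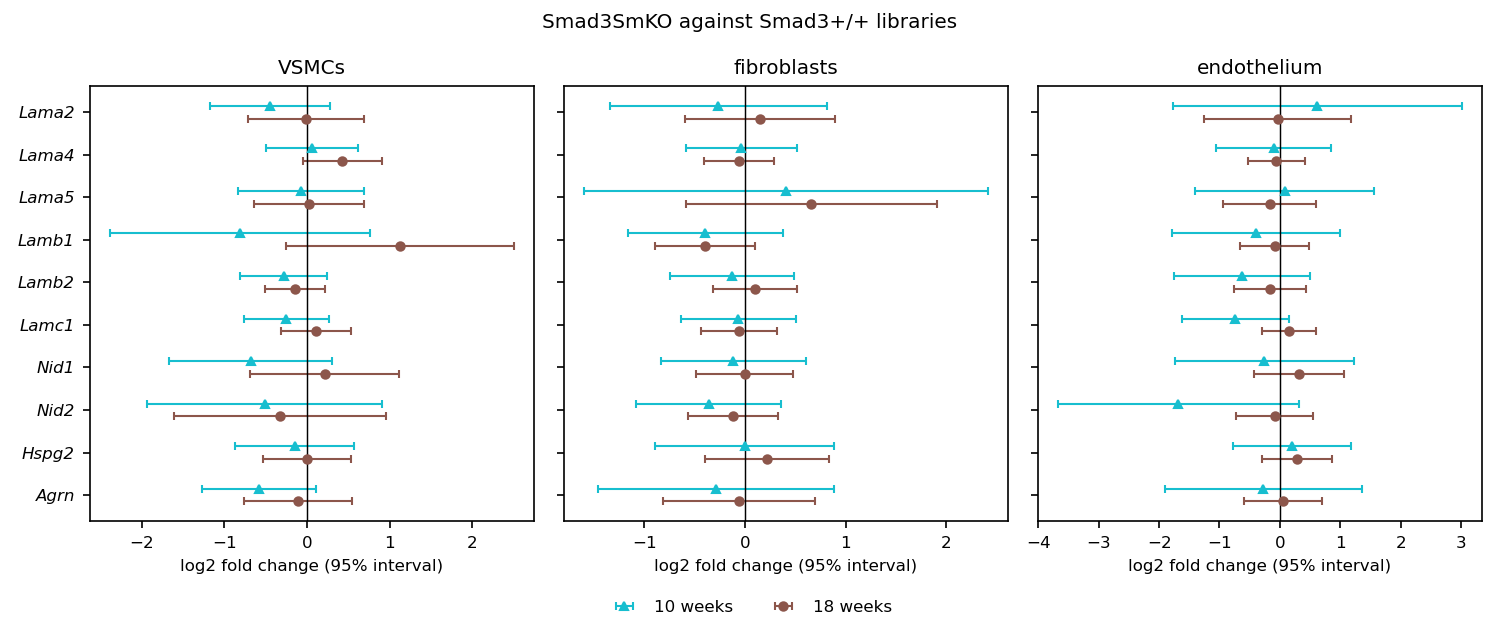
Log2 fold change of each gene in Smad3SmKO against Smad3+/+ with its 95% interval, at 10 and 18 weeks, in VSMCs, fibroblasts and endothelium. Every interval crosses 0, and the widest intervals are those of Lama2 and Nid2 in endothelium and of Lama5 in fibroblasts (-1.60 to 2.41), all at 10 weeks.

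In VSMCs at 18 weeks the interval excluded a change of 2-fold in either direction for 7 of the 10 genes. The levels below are of all 7 Smad3SmKO mice, but replicates 5 and 7 shared a batch without Smad3+/+ mice and did not set the fold changes. Lama4 came closest to the threshold: it was counted at 15.8, 50.5, 42.1, 52.0 and 53.0 CPM in the 5 Smad3+/+ mice and at 34.7, 50.2 and 83.8 (lowest, median and highest) in the 7 Smad3SmKO mice. The groups overlapped, and the log2 fold change with batch in the fit was 0.43 (95% interval -0.05 to 0.91, edgeR adjusted p = 1.00), and 0.84 without Smad3SmKO 18 weeks replicate 6 (edgeR adjusted p = 0.612). Lamb2 was counted at 262, 221, 401, 279 and 275 CPM in Smad3+/+ and at 192, 255 and 419 in Smad3SmKO, with a log2 fold change of -0.14 (95% interval -0.51 to 0.22). Lama5, at 28.6, 37.2, 77.0, 17.1 and 40.5 CPM against 19.6, 47.8 and 87.5, gave 0.02 (95% interval -0.63 to 0.68), so a change of less than that size in either direction was not detectable.

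At 10 weeks all 4 libraries came from 1 batch. Of the 10 fold changes, 9 were below 0 in fibroblasts and 7 in endothelium, which the Cre does not target. In VSMCs 9 of the 10 were below 0, with a median of -0.36 against -0.01 over all genes, and the interval excluded a 2-fold change for 5 genes. Agrn was counted at 41.6 and 19.5 CPM in the Smad3+/+ mice and at 20.5 and 19.4 in the Smad3SmKO mice (log2 fold change -0.58, SE 0.33, 95% interval -1.27 to 0.11). Hspg2 was counted at 300.0 and 145 CPM against 207 and 180, and Lamb2 at 339 and 170 against 205 and 199. In each of these both Smad3SmKO values lay below Smad3+/+ replicate 1 and close to or above replicate 2, and without replicate 1 the fold changes of Lama2, Lama5, Lamb2 and Hspg2 turned above 0 (0.31 for Hspg2). The summed level of the 6 fibroblast markers in these VSMC sums was 1275 to 1306 CPM in Smad3+/+ and 1033 to 1101 in Smad3SmKO, none of them at 0, and all 8 stress genes (Fos, Jun and the like) had fold changes below 0; their part in the values was not tested.

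The difference of the genotype effect between 18 and 10 weeks was above 0 for 8 of the 10 genes in fibroblasts and for 8 in endothelium. In VSMCs it was above 0 for all 10 genes, from 0.10 for Lama5 to 1.93 for Lamb1. The Lamb1 value was 0.05 without Smad3SmKO 18 weeks replicate 6. As stated above, the VSMC level of Lamb1 is not read as expression in VSMCs. The count of 10 rested on 1 library: without Smad3+/+ 10 weeks replicate 1 it was 4 of 10, with -0.31 for Hspg2 and -0.29 for Lamb2, and without any other single library it was 9 or 10. None passed (lowest unadjusted p = 0.0675), and the median was 0.37 for the 10 genes and -0.01 for all genes. In fibroblasts at 18 weeks Lamb1 was counted at 33.4, 66.0, 65.2, 71.1 and 46.5 CPM in Smad3+/+ and at 24.8, 43.8 and 80.3 in Smad3SmKO, the highest being replicate 7. Smad3SmKO was below Smad3+/+ in 4 of 4 batches that held both genotypes, with 1 or 2 libraries of each genotype in a batch. Among the 10 genes in the 3 cell types, only Lamb1 and Lama5 in fibroblasts went 1 way in all 4 batches. No test was made of these batch counts. The log2 fold change of Lamb1, -0.39, did not pass (95% interval -0.89 to 0.11, SE 0.23). Without replicate 7 the SE was 0.14 and the unadjusted p 0.0193 by edgeR. Lama5 was above Smad3+/+ in 4 of 4 of these batches, by 0.66 (95% interval -0.59 to 1.90), and did not pass either. It was counted at 2.01, 1.16, 1.39, 0.875 and 3.20 CPM in Smad3+/+ and at 1.26, 3.52 and 33.6 in Smad3SmKO, the highest being replicate 7, outside these batches. The summed VSMC markers in these fibroblast sums also differed, at 591, 1209 and 2033 CPM in Smad3+/+ and 606, 3095 and 13246 in Smad3SmKO (lowest, median and highest). Their part in the Lama5 values was not tested. Endothelium at 10 weeks, with 1 to 39 UMIs of each gene in a library, could not exclude a 2-fold change for any of the 10.

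Dissociation took 30 min in 7 of the 18 week libraries and 60 min in 5, in different batches. Of these, only the 60 min libraries carried the tracer label, so time of digestion, batch and tracer label cannot be told apart. With edgeR 0 of the 10 passed, where 3.35%, 1.70% and 1.56% of all genes did in VSMCs, fibroblasts and endothelium. An unadjusted p under 0.05 was reached by 1 of 8 genes in VSMCs (17.9% of all genes), where Lamb1 and Nid2 fell under the filter on low counts, by 3 of 10 in fibroblasts (19.3%) and by 2 of 10 in endothelium (14.6%). Hspg2 was counted at 72.5, 143 and 184 CPM in fibroblasts after 30 min and at 201, 214, 132.3, 119 and 258 after 60 min, and the groups overlapped (log2 fold change 0.77, SE 0.24, adjusted p = 0.112). Without Smad3SmKO 18 weeks replicate 7, the highest of them, it was 0.61 (adjusted p = 0.201). In VSMCs it was counted at 135, 192 and 273 against 229, 334, 206, 150 and 359 CPM (0.61, SE 0.20, adjusted p = 0.113). It passed in VSMCs without Smad3SmKO 18 weeks replicate 6 (0.75, adjusted p = 0.0375) and in fibroblasts with DESeq2 (adjusted p = 0.0375).

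In endothelium the Lama4 values did not overlap, with 120, 167 and 185 CPM after 30 min and 86.2, 113, 101 and 85.3 after 60 min (log2 fold change -0.54, adjusted p = 0.177). All 8 stress genes had fold changes above 0 in those endothelial sums and 4 of them passed. In fibroblasts the log2 fold change after 60 min was 1.75 for Lama5, 0.77 for Agrn and 0.55 for Lamb1, and without Smad3SmKO 18 weeks replicate 7 it was 0.55 for Lama5, -0.10 for Agrn and 0.30 for Lamb1. The signs of Lama2 and Nid1, at -0.12 and -0.05, also turned without it, to 0.16 each.

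Within the VSMCs, cells with transcripts that the study places toward the aortic root (Notch3 and Enpep) were compared with cells holding transcripts placed toward the distal ascending aorta (Ptprz1 and Tes), in 13 libraries with at least 10 cells of each. Of the 8 genes tested 3 passed, Nid1 and Lama5 higher and Hspg2 lower in the proximal-marked cells, where 21.4% of all 8934 genes passed (10.1% higher and 11.2% lower). Nid1 was counted at 5.55, 26.8 and 43.5 CPM (lowest, median and highest) in proximal-marked and 0, 4.35 and 9.71 in distal-marked VSMCs, on 2 to 51 and 0 to 60 UMIs in a library. It was higher in proximal-marked cells in 13 of 13 libraries, by 4.06-fold (log2 fold change 2.02, SE 0.22, adjusted p = 1.69e-08). Lama5 was higher in 13 of 13 libraries as well, with means of 50.5 and 28.7 CPM (log2 fold change 0.70, SE 0.13, adjusted p = 1.23e-04).

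**Figure D5:**
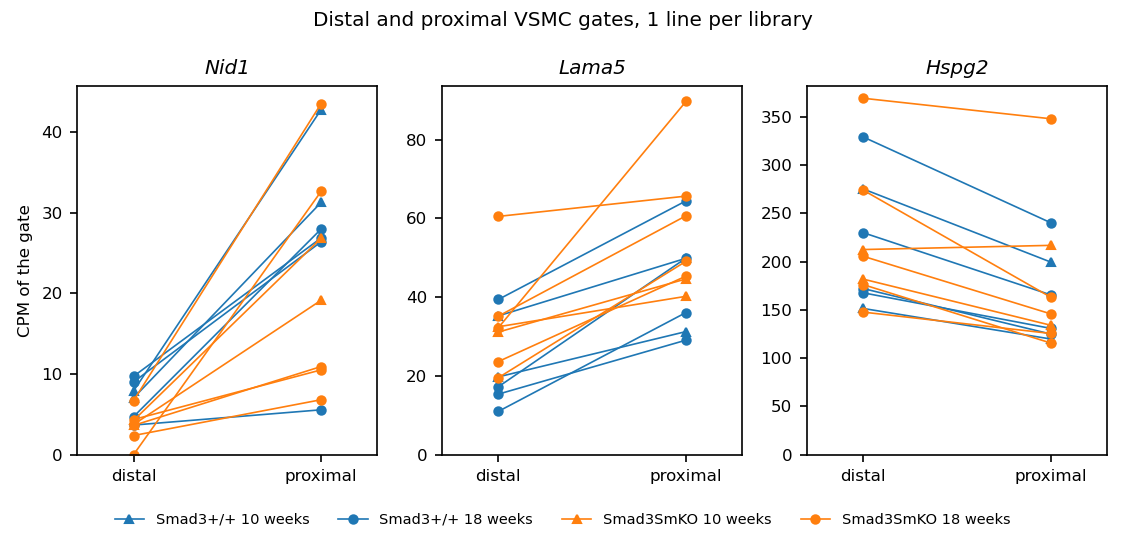
Level (CPM) of the genes in proximal-marked and distal-marked VSMCs, with a line joining the 2 values of a library. Nid1 and Lama5 rise toward the proximal-marked cells in 13 of 13 libraries and Hspg2 falls in 12 of 13.

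Hspg2 averaged 172 CPM in proximal-marked and 223 in distal-marked VSMCs (log2 fold change -0.38, SE 0.07, adjusted p = 1.3e-04). Lamc1 (0.33, adjusted p = 0.0504) and Lama4 (-0.43, adjusted p = 0.0568) lay at the threshold, and Lama2 (-0.39, adjusted p = 0.461), Lamb2 (0.02) and Agrn (-0.17) did not pass. Of the other lists, Lamc3 (-1.24, adjusted p = 7.63e-04) and Col15a1 (-1.53) were lower, and Itga7 (0.63), Bcam (0.42) and Ntn4 (2.18) higher, in proximal-marked cells. Notch3 also marks pericytes, the mural cells of small vessels, and 2 of 5 pericyte markers were higher in proximal-marked cells. Higd1b averaged 57.9 CPM in proximal-marked and 0.0286 in distal-marked cells and Vtn 10.6 and 0.00565, with 8 of 15 proximal-marked sums at 0 for Vtn. The other pericyte markers did not pass: Rgs5 averaged 527 and 334 CPM (medians 268 and 275), Cspg4 162 and 144, and Kcnj8 16.3 and 18.8. The summed level of the list was 135 to 2860 CPM in proximal-marked and 290 to 834 in distal-marked sums, and 8 of 8 stress genes were higher in the former. Without cells that held a UMI of Higd1b, Vtn, Ptprc or Tyrobp the differences were 1.96 for Nid1, 0.73 for Lama5 and -0.34 for Hspg2, and the 3 genes still passed. A cell with no UMI of these genes may still be of another type, and the part of other cell types and of the stress genes in the differences was not tested.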

How the data were processed

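Droplet single cell libraries of 16 mouse aortas were analysed. Per the labels and the submitters' processing notes, the authors aligned reads to mm10 with a GFP sequence added using Cell Ranger 6 and deposited whole UMI counts per gene and cell barcode; the headers of the matrices name version 4.0.0. Gene coordinates are those of GENCODE vM21 on mm10. The study's limits were applied to cells (genes between 600 and 6000, UMIs between 2000 and 50000, mitochondrial share below 25%), which kept 76.7% of those deposited. Cells that met more than 1 cell type definition (2049) or none (4588) were left out, which stood in for a doublet caller; 48 kept cells shared a barcode with a cell of another library holding over 5 times their UMIs.

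UMIs were summed per library and cell type for sums of at least 10 cells, and compared with edgeR 4.0.16 in R 4.3.3 (quasi-likelihood test, two-sided, TMM factors, filterByExpr), with p-values adjusted by Benjamini-Hochberg over all genes tested and a threshold of 0.05. Genotype fits held all libraries with batch as a covariate. Smad3SmKO 18 weeks replicates 5 and 7 made up a batch without Smad3+/+ libraries. They entered the estimate of spread but did not set the genotype fold changes. Cell type and proximal against distal fits held library as a covariate. CPM values were not TMM scaled. In bulk sums, fewer UMIs per cell and fewer cells that express a gene cannot be told apart. Each library is 1 mouse. DESeq2 1.42.0, no filter, stricter definitions, all deposited cells, no batch or library term and leaving out each library were tried as alternatives, and removal of cells holding Higd1b, Vtn, Ptprc or Tyrobp was added after seeing the data. The scripts were tested on simulated counts. The 10 genes, the other lists and the tests were chosen with earlier results of these data known; all 10 were named in every comparison, and genes of the other lists where they passed. Python 3.11.15 with pandas 2.3.3 and matplotlib 3.10.9 was used for sums and figures.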

Additional observations from a re-analysis of the deposited data

Results flagged for a closer look

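In 60 groups of 5, 6 or 7 libraries (each gene in each cell type and genotype at 18 weeks), 8 values lay far from the rest of their group by a gap test that chance passes in about 1 of 20 groups. In the fibroblasts of Smad3SmKO mice at 18 weeks, replicate 7 stood apart in 3 genes: Agrn at 69.3 CPM against 7.97 to 17.5 in the others, Lama5 at 33.6 against 1.26 to 3.87, and Lamb1 at 80.3 against 24.8 to 46.6. This is the library whose fibroblast sum also held 5649 CPM of Acta2. Lama2 in VSMCs was 31.1 CPM in Smad3SmKO 18 weeks replicate 1, on 13 UMIs from 54 cells, against 5.08 to 12.0 in the others. Lamc1 in VSMCs was 94.5 CPM in Smad3+/+ 18 weeks replicate 3, a sum of 46 cells, against 32.5 to 50.1. In endothelium the same library, with 41 cells, gave Lamb1 at 124 CPM against 49.2 to 69.6 and Nid2 at 65.9 against 10.9 to 25.2. Nid2 in the endothelium of Smad3SmKO 18 weeks replicate 1, a sum of 49 cells, was 71.0 CPM against 12.1 to 21.8.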

How the results depend on the processing

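Of 3450 values of single genes under alternatives, 3354 kept their side of the threshold. These either kept their direction, whatever the size of the move, or moved by less than the standard error of the fold change. Of 355 counts of genes that passed, 349 stayed within 1.5 times. All 9 genes called between VSMCs and fibroblasts were called in 22 of 22 alternatives. With cells of 2 definitions counted in both, the endothelium against VSMC difference of Lama2 became 2.28 and that of Lamc1 0.64, and the endothelium against fibroblast difference of Lamb1 became -0.61, each opposite in sign to the value given above; the endothelial sums then held 7427 CPM of Dcn. Hspg2 in endothelium against fibroblasts passed in 14 of 22 alternatives and was lost, among others, with no filter (0.16, adjusted p = 0.201). For the digestion time, DESeq2 called 2 genes in fibroblasts (Hspg2 and Lama5), and 1 (Hspg2) was called in VSMCs with no filter; leaving out single libraries gave 0 to 1. For proximal against distal cells, 5 genes were called with cells of 2 definitions counted in both, 1 with no library term, and 3 to 5 when single libraries were left out, the 5 without Smad3+/+ 10 weeks replicate 1. The cause of these changes was not tested. No paired analysis was possible because the labels give no replicate numbers that tie mice of the 2 genotypes, and the numbers used here only name a library; comparisons within a library held library in the fit. Depth left the 10 week endothelial sums, with 1 to 39 UMIs of each gene in a library, unable to exclude a 2-fold genotype change for any of the 10 genes.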
